A study of Mus musculus with 4 samples.

Results

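The 40 genes described here encode acid hydrolases of the lysosome, the small proteins that assist them, and proteins of the lysosomal membrane. They were found by symbol in a count table of 55487 genes; each of the 40 symbols had 1 row, and all 40 were present. The cells were Langerhans cells, which are dendritic cells that live in the epidermis, taken from mouse ears, and total RNA was sequenced. In 2 libraries the ears had received imiquimod, an agonist of Toll-like receptor 7 whose use on skin gives a psoriasis-like inflammation, and in 2 they had received Vaseline, the negative control. Both groups were wild type, and no other allele or agent is named. Whether the 2 libraries of a treatment were made from different mice is not given in the sources used here, nor are strain, age, dose, duration and the way the cells were sorted. The p-values therefore measure only how far these 4 samples spread, which may be technical. The comparison asks how Langerhans cells from inflamed ears differ from those of control ears.

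Lysosomal hydrolases are made in the endoplasmic reticulum, tagged with mannose 6-phosphate and carried to an acidic compartment where they break down proteins, glycans and lipids. In dendritic cells the cathepsins among them also cut antigens into peptides and remove the invariant chain from MHC class II molecules, so that lysosomal proteolysis is part of antigen presentation. Many lysosomal genes carry an E-box-like element near their start that transcription factors of the TFEB and TFE3 family bind, and genes restricted to myeloid cells often depend on PU.1, encoded by Spi1.

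Library totals were 14902782 and 20690182 counts in imiquimod 1 and 2 and 41998172 and 76028955 in Vaseline 1 and 2. The libraries also differed in reads at genes that skin is not known to use. Over 1491 olfactory and vomeronasal receptor genes the median was 0.533 and 1.29 CPM (counts scaled to the library total) per exonic kilobase in imiquimod 1 and 2, against 0.377 and 0.0953 in Vaseline 1 and 2, and this is called the background below. TMM factors, which rescale library totals, were 1.05 and 1.66 in imiquimod 1 and 2 and 0.955 and 0.598 in Vaseline 1 and 2. The 14403 tested genes whose mean level was at least 5 times this background are called well-expressed genes below. The mean is over a gene's ratios to the background in the 4 libraries, so a gene can pass through the Vaseline libraries alone. Their median log2 fold change was -0.69 and 83.3% were negative, while among all 39439 tested genes the median was 0.41. On library totals alone the medians were 0.12 and 1.30, so fold changes below depend on the scaling. Levels in CPM below are TMM-normalised, and groups were called lower, higher or overlapping from these values unless library totals are named. The sample descriptions carry 1 letter code for both Vaseline libraries and another code for each imiquimod library; their meaning is not given, and a batch they might stand for cannot be told apart from treatment.

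In TMM-normalised CPM most of the 40 genes had lower values in both imiquimod libraries, led by Gm2a, the cofactor that lifts GM2 ganglioside to hexosaminidase A, Arsb, a sulfatase of dermatan sulfate, and Ctss, cathepsin S, but none passed the edgeR quasi-likelihood test after Benjamini-Hochberg adjustment over all tested genes. All 40 were tested, with at least 66 counts in every library. Their levels were 7.24 to 1836 times the background as a mean over the 4 libraries, and lower in some single libraries. In imiquimod 2, Idua had 215 counts over 4204 exonic bases, where the background was 26.6 counts per exonic kilobase. By TMM scaling 38 had a negative log2 fold change (imiquimod over Vaseline) and 2, Ctsl and Gaa, a positive one. The median was -1.11, against -0.69 for all well-expressed genes. By edgeR quasi-likelihood 0 members passed as lower and 0 as higher at an adjusted p under 0.05, where 0.137% of all tested genes were lower and 0.0634% higher. At an unadjusted p under 0.05, 10 members had lower values and 0 higher, where 5.1% of all tested genes had lower values. Those 10 were Arsb, Gm2a, Gusb, Hexa, Lipa, Ifi30, Ppt1, Ids, Man2b1 and Ctss. Adjusted p ran from 0.0849 for Arsb to 0.892 for Lgmn.

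Other tools made a few calls. DESeq2, which called 1.69% of all tested genes lower, called 7 members lower and 0 higher: Ctss, Hexa, Gusb, Arsb, Gm2a, Lipa and Laptm5. It gave no adjusted p for Idua. Limma-voom called 0.345% of all tested genes lower, and 2 members, Arsb and Gm2a. In the TMM-normalised values 32 of the 40 members were lower in both imiquimod libraries than in both Vaseline libraries. That was so of 20.9% of all tested genes and of 50.6% of the well-expressed ones. On library totals alone, 19 of the 40 were lower without overlap, where 19.5% of well-expressed genes were. By library totals 4 were higher without overlap, Gaa, Lgmn, Smpd1 and Mcoln1, where 23.4% of well-expressed genes were.

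The well-expressed genes were also fitted alone, which brought the median log2 fold change of all fitted genes to 0.08. The members' median was then -0.31, with 29 negative and 11 positive. By edgeR quasi-likelihood 0 members passed in that fit (smallest adjusted p = 0.430). At an unadjusted p under 0.05, 7 had lower values, where 4.79% of the genes fitted had, and 1, Gaa, a higher value. DESeq2 on the same genes called 1.08% of them lower, Arsb and Gm2a among the members. In imiquimod 2, Arsb had 381 counts over 6037 exonic bases, where the background was 26.6 counts per exonic kilobase. A gene can enter that set through its Vaseline values, so a call as lower there is no separate support. The median of the 40 genes in the fit of all tested genes ran from -1.57 without Vaseline 1 to -0.74 without Vaseline 2.

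**Figure D1:**
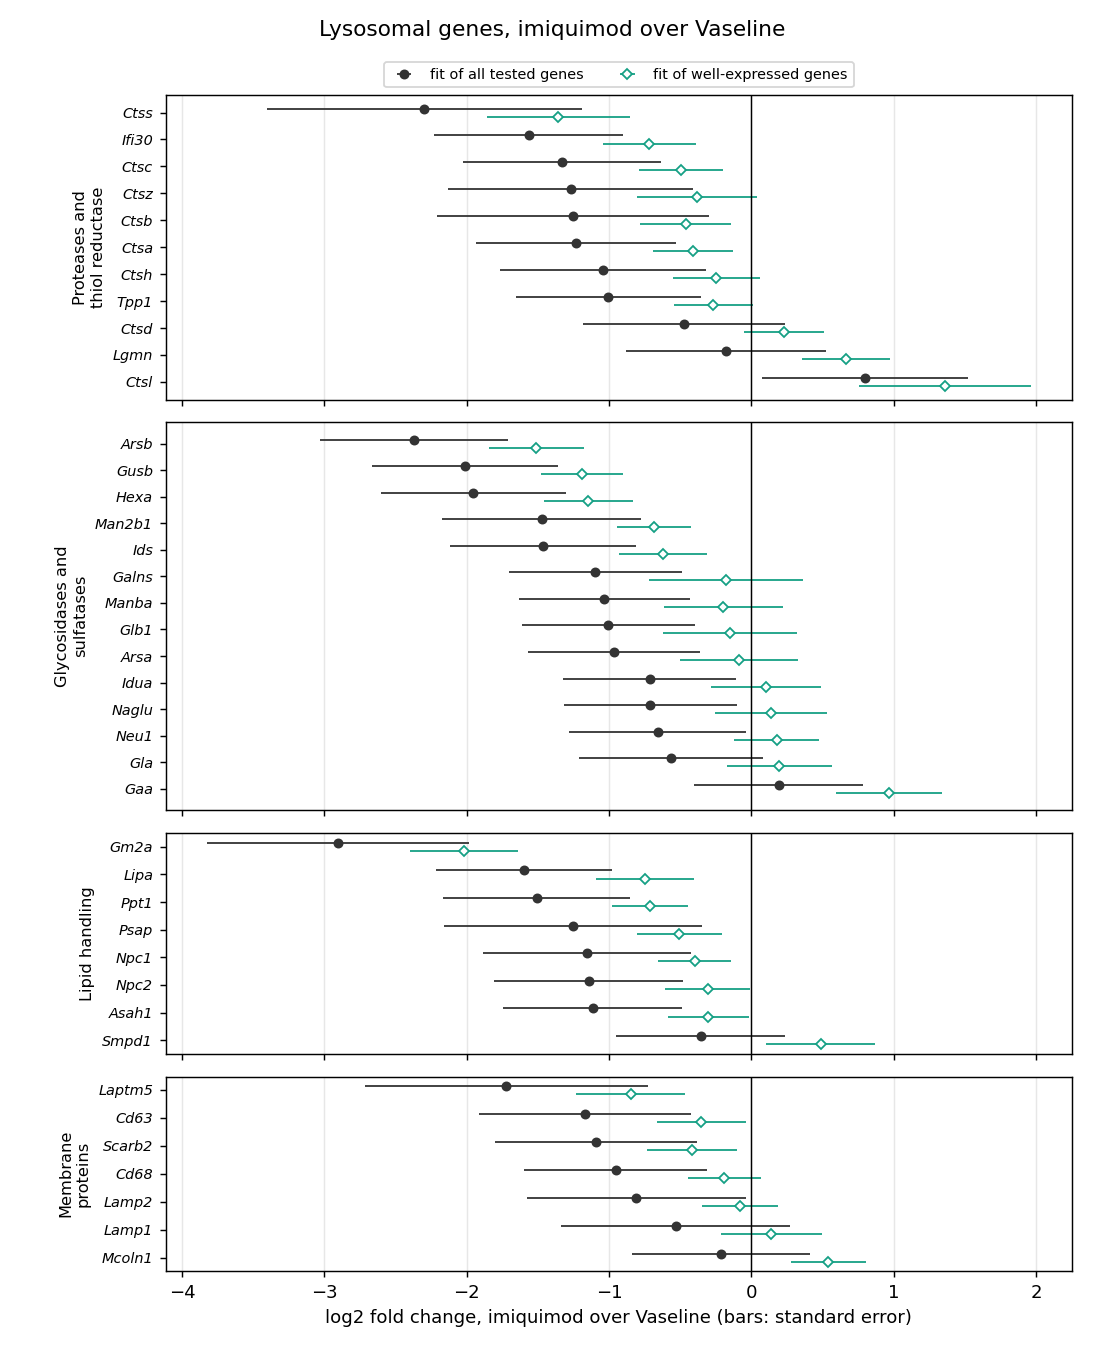
Log2 fold change of each of the 40 genes, imiquimod over Vaseline, by role, with bars of 1 standard error. Filled circles come from the fit to every tested gene (median -1.11) and open diamonds from that of well-expressed genes (median -0.31); the diamonds lie to the right of the circles for every gene, and the order of the genes is similar, from Gm2a, Arsb and Ctss at the left to Ctsl and Gaa at the right.

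The bases just before the starts of these genes were searched for 5 motifs on both strands, since members that carry the same element can be set side by side. Windows of 250 bases before to 50 after each start came from RefSeq (GRCm38.p6), where 35 members had 38 windows; Asah1, Ctsb, Ctsh, Galns and Npc1 had none. Motifs and grouping were chosen with the fold changes known, so the values are a description without a test. The E-box CACGTG stood in windows of 12 of the 35 members, and in 7.15% of all 32851 windows. Its extended form GTCACGTG or CACGTGAC, which contains the E-box, stood in 10 members and 2.25% of all windows. The M-box TCATGTG or CACATGA stood in 6 members and 3.77% of windows, and the AP-1 site TGACTCA or TGAGTCA in 4 members and 5.20%. The core of the PU.1 site, GAGGAAG or CTTCCTC, stood in 9 members and 13.6% of windows. A match is a run of letters and not a bound site.

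The 12 members with an E-box were Arsa, Ctsa, Ctsd, Ctsl, Gaa, Gla, Glb1, Ifi30, Lamp1, Lgmn, Mcoln1 and Naglu. Both members with a positive log2 fold change, Ctsl and Gaa, were among them, as were Lgmn and Mcoln1. Lamp1 held 4 E-boxes within its window. The following 30 bases around an E-box are shown for members with the highest log2 fold changes, in the direction of the gene, with the E-box in capitals. Those of Ctsl lie on the minus strand at chr13:64370739-64370768, of Gaa on the plus strand at chr11:119267811-119267840, of Lgmn on the minus strand at chr12:102439124-102439153, at a start whose first bases are in no GENCODE transcript of the gene, of Ctsd on the minus strand at chr7:142387908-142387937, and of Lamp1 on the plus strand at chr8:13159121-13159150.
Ctsl: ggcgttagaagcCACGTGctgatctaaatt
Gaa: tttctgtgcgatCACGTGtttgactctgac
Lgmn: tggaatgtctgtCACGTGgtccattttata
Ctsd: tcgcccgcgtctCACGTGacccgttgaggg
Lamp1: gatgccgactggCACGTGaccacatcacgt
In Lgmn the 2 bases before the E-box complete the extended form, and in Ctsd and Lamp1 the 2 bases after it do. The E-boxes of Ctsl and Gaa are not part of an extended form. Mcoln1, the lysosomal cation channel TRPML1, holds a pair of extended forms, shown in capitals in the 250 bases before its start (plus strand, chr8:3500269-3500518).
Mcoln1: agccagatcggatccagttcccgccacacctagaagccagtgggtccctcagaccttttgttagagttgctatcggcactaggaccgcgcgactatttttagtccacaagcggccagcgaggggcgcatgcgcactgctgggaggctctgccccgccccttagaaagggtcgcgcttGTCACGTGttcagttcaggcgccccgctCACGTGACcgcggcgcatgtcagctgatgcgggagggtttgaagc

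The 9 members with a PU.1 core were Cd63, Ctsc, Ctss, Gla, Gm2a, Gusb, Laptm5, Lipa and Man2b1. These include 5 of the 7 members that DESeq2 called lower. The 29 bases around the core, in capitals, are shown for 3 of these. They lie on the plus strand at chr3:95526774-95526802 for Ctss and chr4:130913266-130913294 for Laptm5, and on the minus strand at chr19:34527640-34527668 for Lipa.
Ctss: atgaaagttcaCTTCCTCattgtggatgc
Laptm5: gcagcctgtggCTTCCTCttttttgttct
Lipa: ctttgaagcagGAGGAAGctctggctggg
In Ctss the core lies across the annotated start. Gm2a, with the lowest log2 fold change of the 40, holds its core near the end of the 250 bases before its start (plus strand, chr11:55097735-55097984), again in capitals; the first bases after that start are in no GENCODE transcript of Gm2a.
Gm2a: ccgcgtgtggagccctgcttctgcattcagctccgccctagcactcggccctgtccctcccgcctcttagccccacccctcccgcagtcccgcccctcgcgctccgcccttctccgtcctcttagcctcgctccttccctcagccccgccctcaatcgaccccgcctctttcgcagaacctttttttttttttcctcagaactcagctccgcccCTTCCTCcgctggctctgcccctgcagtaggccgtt

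Among the 35 members the median log2 fold change was -0.55 with an E-box and -1.27 without, and -1.59 with a PU.1 core and -0.99 without. With the extended E-box it was -0.64, against -1.26 without. The other motifs searched showed smaller gaps, at -1.16 with an M-box and -1.03 without, and -0.98 with an AP-1 site and -1.14 without. Of members above zero in the fit of well-expressed genes, 8 had an E-box and 3 had none. Gla was the only member with both an E-box and a PU.1 core, at -0.56. Over all well-expressed genes that had a window, no such gap was seen for the E-box or the PU.1 core. The median was -0.73 for 1046 genes with an E-box and -0.76 for 7754 without. It was -0.76 both for 1431 genes with a PU.1 core and for 7369 without. The window says nothing of elements elsewhere in the gene.

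**Figure D2:**
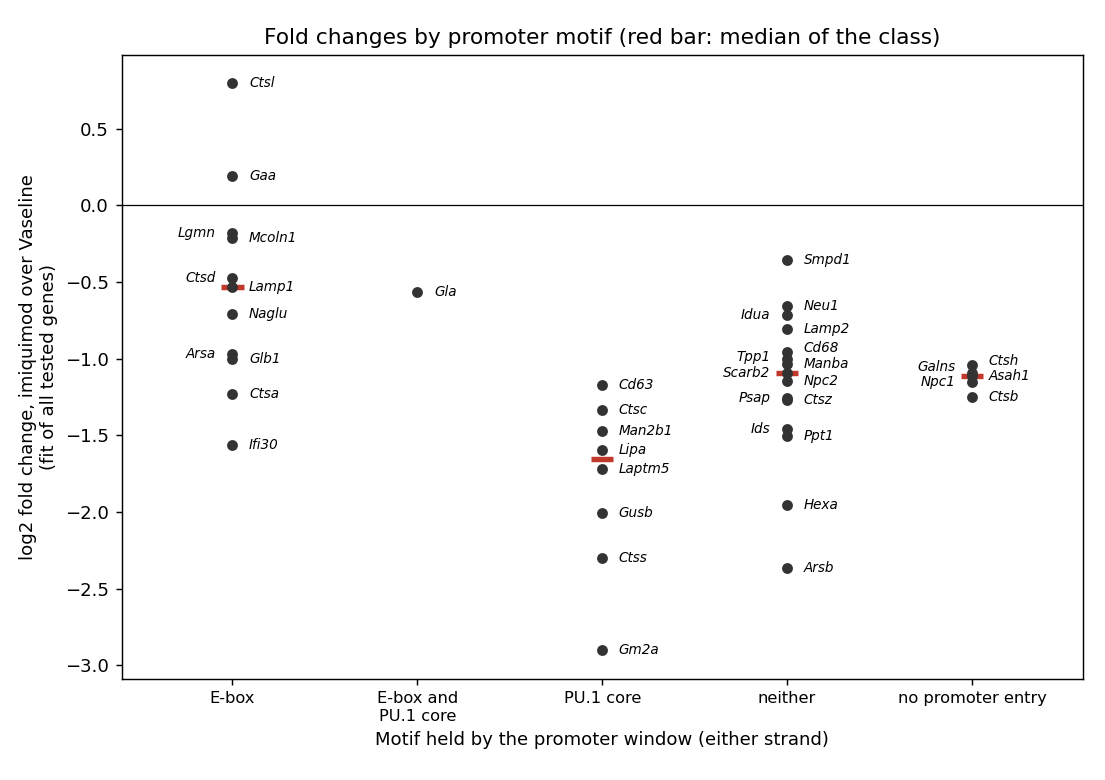
Log2 fold change of the 40 genes, imiquimod over Vaseline, from the fit of all tested genes, by the motif that the promoter window holds; each point is a gene and the red bar the median of its class. The 11 genes with an E-box alone have a median of -0.53 and include both genes above zero, the 8 with a PU.1 core alone have a median of -1.66, and the 15 with neither a median of -1.09.

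Of the 11 genes of proteolysis, 10 proteases and a thiol reductase that assists them, 10 had negative log2 fold changes. Among well-expressed genes 83.3% were negative. The median of the 11 was -1.23 in the fit of all tested genes and -0.38 among well-expressed genes. By edgeR quasi-likelihood 0 of the 11 passed, with 2, Ifi30 and Ctss, at an unadjusted p under 0.05. DESeq2 called 1, Ctss, where it called 1.69% of all tested genes lower, and limma-voom called 0. Cathepsin S, encoded by Ctss (ENSMUSG00000038642; GRCm38, chr3:95526786-95556403), is the main enzyme that trims the invariant chain in dendritic cells. Ctss had 159 and 204 CPM in the imiquimod libraries, against 479 and 1306 CPM in the Vaseline libraries. Both imiquimod values lay under the lower Vaseline value, and the Vaseline libraries lay far apart. The means were 181 ± 31.7 CPM with imiquimod and 893 ± 584 CPM with Vaseline (SD, n = 2 each). The log2 fold change was -2.30 (SE 1.11), with adjusted p = 0.348 by edgeR quasi-likelihood and 0.00657 by DESeq2. Among well-expressed genes it was -1.36 (edgeR quasi-likelihood, adjusted p = 0.482). Per exonic kilobase Ctss was the most abundant of the 40 in all 4 libraries.

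Ctsl, cathepsin L, which trims the invariant chain in thymic epithelium and is also made by keratinocytes, had the highest log2 fold change of the 40, which rested on 1 library. Ctsl (ENSMUSG00000021477; chr13:64359337-64370890) had 231 and 37.7 CPM in imiquimod 1 and 2, against 71.6 and 82.1 CPM in Vaseline 1 and 2. The groups overlapped, since imiquimod 1 held the highest of the 4 values and imiquimod 2 the lowest. Its log2 fold change of 0.80 (SE 0.73; edgeR quasi-likelihood, adjusted p = 0.540) was 1.59 without imiquimod 2 and -1.10 without imiquimod 1. The exons of other annotated genes cover 26.8% of its exonic bases, so part of these reads cannot be placed with certainty. Among the 40 genes Ctsl ranked 9th per exonic kilobase in imiquimod 1 and 19th in imiquimod 2, against 22nd in Vaseline 1 and 30th in Vaseline 2.

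Ctsb, cathepsin B, had 257 and 159 CPM with imiquimod against 338 and 652 CPM with Vaseline. Ctsz, the carboxypeptidase cathepsin Z, had 149 and 119 CPM with imiquimod against 157 and 488 CPM with Vaseline. Neither overlapped between groups, but for Ctsz the lower Vaseline value lay close to the higher imiquimod value. Their log2 fold changes were -1.25 and -1.27 (edgeR quasi-likelihood, adjusted p = 0.484 and 0.446). Ifi30, the thiol reductase GILT that opens disulphide bonds of antigens, had 28.9 and 22.0 CPM with imiquimod against 45.8 and 104 CPM with Vaseline. Both imiquimod values were under both Vaseline values, and its log2 fold change was -1.57 (SE 0.66; edgeR quasi-likelihood, adjusted p = 0.311).

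The other 6 of this group were Ctsa, the carboxypeptidase that protects beta-galactosidase and sialidase, Ctsc, which activates granule serine proteases, the aspartic protease Ctsd, the aminopeptidase Ctsh, the asparaginyl endopeptidase Lgmn and the tripeptidyl peptidase Tpp1. All 6 had negative log2 fold changes, between -1.33 for Ctsc and -0.18 for Lgmn. In 4 of them the imiquimod values were lower without overlap, where 50.6% of well-expressed genes were. On library totals alone 3 of them were, where 19.5% of well-expressed genes were. Lgmn is singled out after its values were seen. Lgmn had 85.9 and 82.9 CPM with imiquimod against 70.3 and 121 CPM with Vaseline, so that both imiquimod values lay between the Vaseline values. It was 0.24 without Vaseline 2 and 0.67 among well-expressed genes (edgeR quasi-likelihood, adjusted p = 0.501). Exons of an overlapping gene cover 34.4% of the exonic bases of Ctsd.

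Of the 14 glycosidases and sulfatases, 13 had negative log2 fold changes, where 83.3% of well-expressed genes had. In TMM-normalised CPM 12 of the 14 were lower in both imiquimod libraries, where 50.6% of well-expressed genes were, and on library totals alone 5 of the 14, where 19.5% were. The median was -1.02 in the fit of all tested genes and -0.16 among well-expressed genes, where 5 were positive. Of the 14, 0 passed by edgeR quasi-likelihood, with 5 at an unadjusted p under 0.05 and lower: Arsb, Gusb, Hexa, Ids and Man2b1. DESeq2 called 3 of the 14 lower, where it called 1.69% of all tested genes, and limma-voom 1, where it called 0.345%. Arsb (ENSMUSG00000042082; chr13:93771630-93943016) encodes arylsulfatase B, which takes sulphate off dermatan and chondroitin sulphate. It had 12.2 and 11.1 CPM with imiquimod against 40.9 and 79.2 CPM with Vaseline. By TMM scaling the imiquimod libraries lay close together and far under both Vaseline libraries. The means were 11.7 ± 0.766 CPM with imiquimod and 60.0 ± 27.0 CPM with Vaseline (SD, n = 2 each). Arsb had the smallest p of the 40 genes, with a log2 fold change of -2.37 (SE 0.66; edgeR quasi-likelihood, adjusted p = 0.0849). It passed by DESeq2 (adjusted p = 0.00446) and by limma-voom (adjusted p = 0.0341), and by edgeR quasi-likelihood with a filter of at least 10 counts in every library and 50 in total (adjusted p = 0.0263) and without Vaseline 1 (adjusted p = 0.0457). Over all alternatives its adjusted p ran from 0.00446 to 1.00. Exons of other genes, on the other strand, cover 39.9% of its exonic bases, and the strand setting of the counting is not given in the sources used here.

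Gusb, beta-glucuronidase (ENSMUSG00000025534; chr5:129989011-130003049), had 17.7 and 13.3 CPM with imiquimod against 45.3 and 78.8 CPM with Vaseline. Both imiquimod values were far under both Vaseline values, and its log2 fold change was -2.01 (SE 0.65; edgeR quasi-likelihood, adjusted p = 0.180). Ids, iduronate 2-sulfatase, had 25.9 and 24.95 CPM with imiquimod against 52.9 and 87.0 CPM with Vaseline. Man2b1, lysosomal alpha-mannosidase, had 45.4 and 34.3 CPM with imiquimod against 89.7 and 131 CPM with Vaseline. Neither overlapped between groups, and their log2 fold changes were -1.46 and -1.47 (edgeR quasi-likelihood, adjusted p = 0.329 and 0.341). Gla, alpha-galactosidase A, which clears globotriaosylceramide, had 58.6 and 24.0 CPM with imiquimod against 36.4 and 84.5 CPM with Vaseline. Its groups overlapped, at a log2 fold change of -0.56 (edgeR quasi-likelihood, adjusted p = 0.617).

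Gaa, acid alpha-glucosidase, the enzyme of lysosomal glycogen breakdown, was the only member higher in both imiquimod libraries in TMM-normalised CPM, where 5.44% of well-expressed genes were, and 1 of 4 on library totals alone. Gaa (ENSMUSG00000025579; chr11:119267887-119285454) had 21.4 and 20.6 CPM with imiquimod against 18.9 and 17.8 CPM with Vaseline. By TMM scaling the 4 values lay close together. Its log2 fold change was 0.19 (SE 0.59; edgeR quasi-likelihood, adjusted p = 0.861), and 0.96 among well-expressed genes (adjusted p = 0.482). With the background subtracted it was 1.05 (edgeR quasi-likelihood, adjusted p = 0.509).

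The other 8 enzymes of this group averaged 5.96 to 27.8 CPM with imiquimod and 10.7 to 55.6 CPM with Vaseline, and all 8 were lower in both imiquimod libraries. On library totals alone that held for 1 of the 8, Hexa. Hexa, the alpha subunit of hexosaminidase A, had the lowest log2 fold change of these at -1.95 (edgeR quasi-likelihood, adjusted p = 0.190) and Neu1, the sialidase, the highest at -0.66. The others were Glb1, beta-galactosidase, Naglu and Idua, which degrade heparan sulphate, Manba, beta-mannosidase, Galns, a sulfatase of keratan sulphate, and Arsa, the sulfatase of sulfatides. Naglu, Idua and Neu1 had positive values among well-expressed genes.

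All 8 genes of lipid handling had negative log2 fold changes, where 83.3% of well-expressed genes had. In TMM-normalised CPM 7 of the 8 were lower in both imiquimod libraries, where 50.6% of well-expressed genes were. On library totals alone 6 were, where 19.5% of well-expressed genes were. The median was -1.20 in the fit of all tested genes and -0.45 among well-expressed genes. Of the 8, 0 passed by edgeR quasi-likelihood, with 3 at an unadjusted p under 0.05 and lower: Gm2a, Lipa and Ppt1. DESeq2 called 2 of the 8 lower, where it called 1.69% of all tested genes, and limma-voom 1, where it called 0.345%. Gm2a (ENSMUSG00000000594; chr11:55098115-55113029) encodes the GM2 activator, which presents GM2 ganglioside to hexosaminidase A and can also load lipids onto CD1 molecules. It had 55.1 and 56.8 CPM with imiquimod against 266 and 571 CPM with Vaseline. By TMM scaling the imiquimod libraries were nearly equal and both were far under the lower Vaseline library. Its shares of the summed counts of the 40 genes were less alike, at 2.00% and 3.10% in imiquimod 1 and 2. The means were 55.9 ± 1.24 CPM with imiquimod and 418 ± 216 CPM with Vaseline (SD, n = 2 each). The log2 fold change of -2.90 (SE 0.92; edgeR quasi-likelihood, adjusted p = 0.165) was the lowest of the 40, and -2.02 among well-expressed genes (adjusted p = 0.430). Gm2a passed by DESeq2 in both sets of genes (adjusted p = 0.000335 and 0.000463). No exon of another gene overlaps it. Its partner Hexa, above, was called lower by DESeq2 as well (adjusted p = 0.0284).

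Psap, the precursor of the saposins, had 218 and 116 CPM with imiquimod against 300.2 and 496 CPM with Vaseline. Npc1, which moves cholesterol out through the lysosomal membrane, had 81.5 and 48.4 CPM with imiquimod against 117 and 171 CPM with Vaseline. Both had higher values in every Vaseline library, with log2 fold changes of -1.26 and -1.15 (edgeR quasi-likelihood, adjusted p = 0.466 and 0.427). Lipa, acid lipase, which frees cholesterol from its esters, had 11.4 and 11.2 CPM with imiquimod against 25.9 and 42.2 CPM with Vaseline. Its log2 fold change was -1.59 (SE 0.62; edgeR quasi-likelihood, adjusted p = 0.280). Smpd1, acid sphingomyelinase, was the highest of this group at -0.36, with 10.48 and 11.2 CPM with imiquimod against 11.1 and 16.6 CPM with Vaseline, and its groups overlapped. Npc2, the soluble partner of Npc1, acid ceramidase Asah1 and the thioesterase Ppt1 ran from -1.51 for Ppt1 to -1.12 for Asah1.

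All 7 membrane proteins had negative log2 fold changes, where 83.3% of well-expressed genes had. The median of the 7 was -0.95 in the fit of all tested genes and -0.19 among well-expressed genes. By edgeR quasi-likelihood 0 of the 7 passed, and 0 were at an unadjusted p under 0.05. DESeq2 called 1 lower, where it called 1.69% of all tested genes, and limma-voom 0. Laptm5, a transmembrane protein of blood cell lysosomes that lowers antigen receptor levels (ENSMUSG00000028581; chr4:130913125-130936141), had 181 and 185 CPM with imiquimod against 402 and 804 CPM with Vaseline. The imiquimod values were nearly equal and under both Vaseline values. Its log2 fold change was -1.72 (SE 1.00), with adjusted p = 0.402 by edgeR quasi-likelihood and 0.0315 by DESeq2. Cd63, a tetraspanin of late endosomes, had 85.9 and 54.9 CPM with imiquimod against 96.7 and 219 CPM with Vaseline, and a log2 fold change of -1.17.

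Lamp1 and Lamp2 encode the most abundant glycoproteins of the lysosomal membrane. Lamp1 had 217 and 77.0 CPM with imiquimod against 176 and 247 CPM with Vaseline. Its groups overlapped, since imiquimod 1 exceeded Vaseline 1, and its log2 fold change was -0.53 (edgeR quasi-likelihood, adjusted p = 0.706). Lamp2 had 132 and 70.7 CPM with imiquimod against 149 and 204 CPM with Vaseline, and a log2 fold change of -0.81. Mcoln1 had 43.8 and 27.9 CPM with imiquimod against 35.4 and 47.5 CPM with Vaseline. Its groups overlapped, and its log2 fold change of -0.22 was 0.54 among well-expressed genes (edgeR quasi-likelihood, adjusted p = 0.511). The remaining members of the group, Cd68, a heavily glycosylated protein of macrophages and dendritic cells, and Scarb2, the carrier of glucocerebrosidase, had -0.95 and -1.09.

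**Figure D3:**
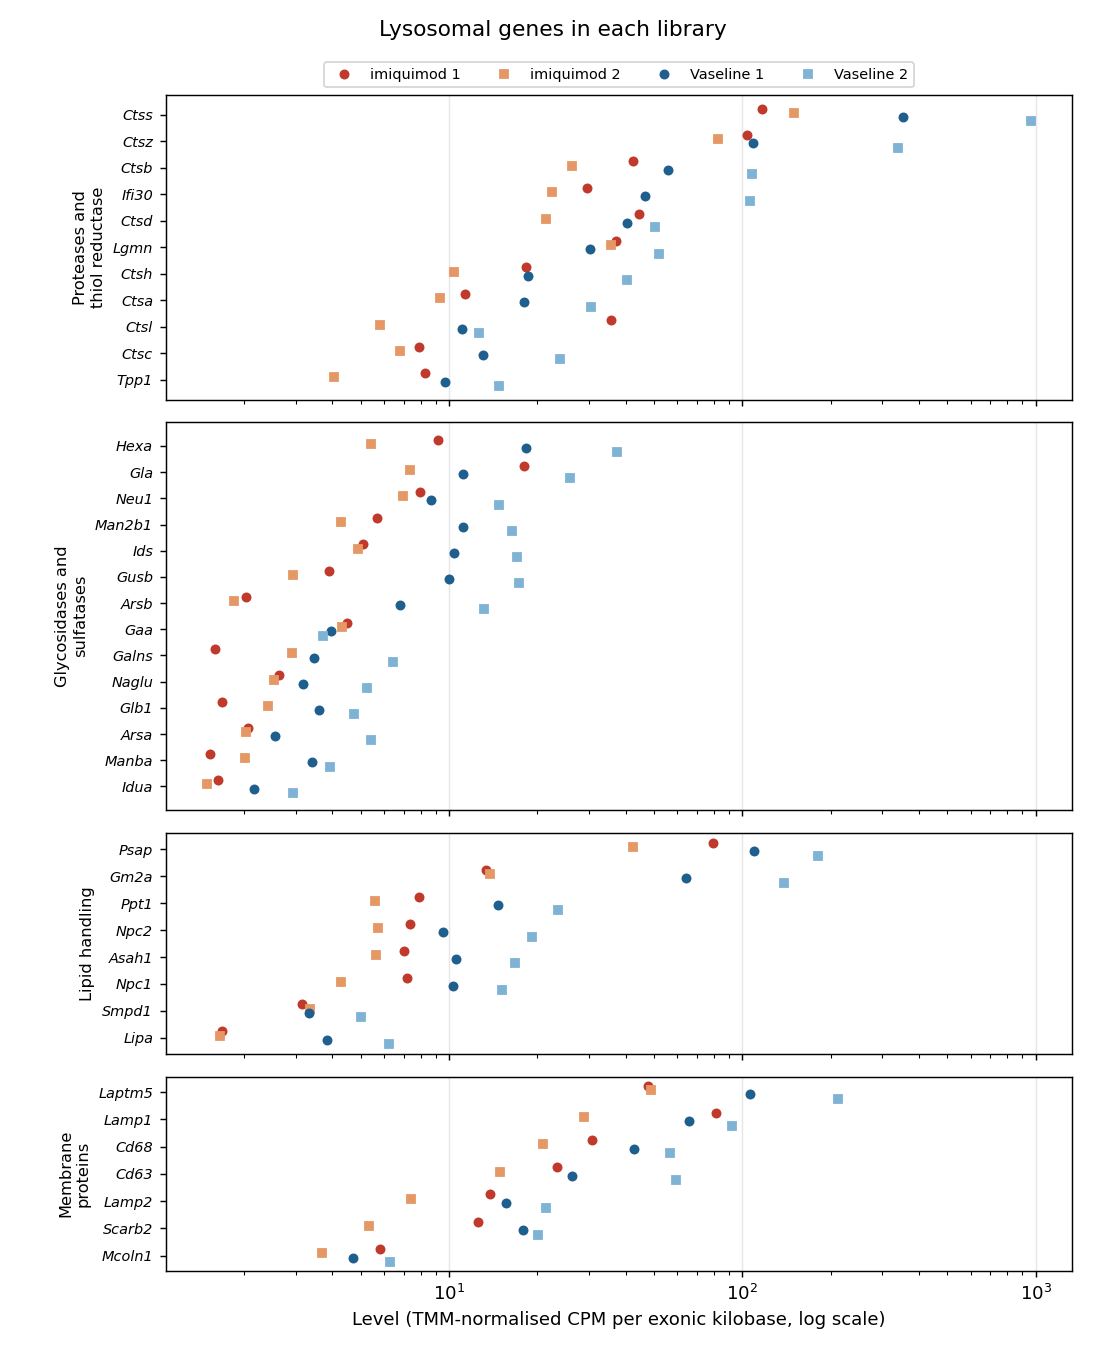
Level of each of the 40 genes in each library, in TMM-normalised CPM per exonic kilobase on a log scale, by role and sorted by mean level; circles are replicate 1 and squares replicate 2, in red and orange for imiquimod and dark and light blue for Vaseline. Vaseline 2 is the rightmost point for most genes, Ctss is highest in all libraries, and Ctsl has imiquimod 1 far to the right of the other 3 points.

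In TMM-normalised CPM the libraries of a group differed among themselves in the same direction for most members. Vaseline 2 exceeded Vaseline 1 for 39 of the 40 genes, by a median log2 difference of 0.72, and imiquimod 1 exceeded imiquimod 2 for 33, by a median of 0.35. This order depends on the scaling. On library totals alone Vaseline 2 exceeded Vaseline 1 for 24 of the 40, with a median log2 difference of 0.049, and imiquimod 1 exceeded imiquimod 2 for 12, with a median of -0.31. Members with lower fold changes tended to have a larger gap between the Vaseline libraries, as over the 40 genes Spearman's rho of the log2 fold change with the log2 ratio of Vaseline 2 to Vaseline 1 was -0.54. Both measures share the Vaseline libraries, and genes are not independent replicates.

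Shares within the summed counts of the 40 genes do not depend on the scaling of libraries. The sum itself was 0.289% and 0.303% of all counts in imiquimod 1 and 2, against 0.368% and 0.441% in Vaseline 1 and 2. Unlike the shares, these percentages are a scaling to library totals. The share of Ctss in the summed counts was 5.77% and 11.1% with imiquimod against 12.4% and 17.7% with Vaseline. The share of Gm2a was 2.00% and 3.10% with imiquimod against 6.88% and 7.73% with Vaseline. In both genes each imiquimod library held a smaller share than each Vaseline library. Ctsl had 8.38% and 2.06% with imiquimod against 1.85% and 1.11% with Vaseline, most of it in imiquimod 1. Lgmn had 3.12% and 4.53% with imiquimod against 1.82% and 1.64% with Vaseline. Over the 40 genes, 15 had a larger share in both imiquimod libraries, 7 a smaller one and 18 overlapped; the 7 were Ctss, Hexa, Gusb, Arsb, Gm2a, Ppt1 and Laptm5. No 95% Wilson interval of a share reached further than 0.274 percentage points to a side. These intervals cover counting error only, since PCR copies were not marked and reads are not independent molecules.

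Ratios of counts within a library are also free of the scaling. Per count of Ctss, Lgmn had 0.541 and 0.407 counts with imiquimod against 0.147 and 0.0926 with Vaseline. Per count of Psap, Gm2a had 0.253 and 0.489 counts with imiquimod against 0.885 and 1.15 with Vaseline. Per count of Gaa, Hexa had 0.857 and 0.525 counts with imiquimod against 1.93 and 4.19 with Vaseline. The groups did not overlap in any of these 3 ratios, which were chosen after the values were seen. A ratio shows unequal change of its members and not which of them changed.

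**Figure D4:**
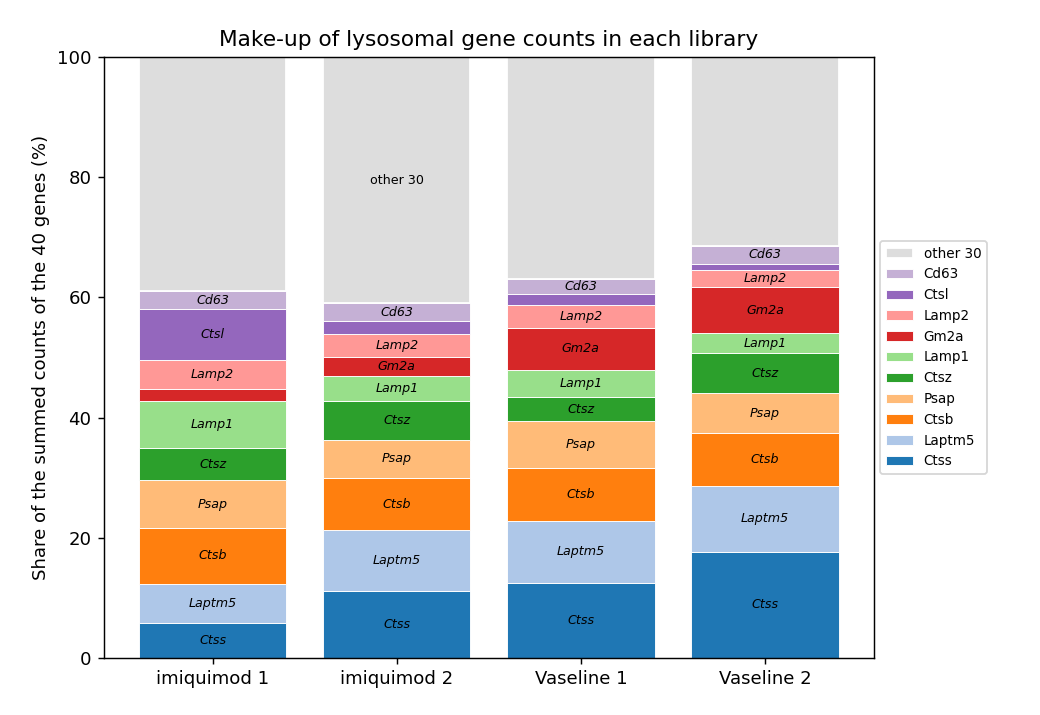
Share of the summed counts of the 40 genes held by the 10 most abundant genes and by the other 30, in percent, in each library. Ctss (bottom) takes 5.77% and 11.1% in the imiquimod bars and 12.4% and 17.7% in the Vaseline bars, the red band of Gm2a is thinner in both imiquimod bars, and the dark purple band of Ctsl is widest in imiquimod 1.

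A further 81 genes of the lysosome were followed for context, and 0 of them passed by edgeR quasi-likelihood in either direction. At an unadjusted p under 0.05, 14 had lower values, where 5.1% of all tested genes had, and 0 higher. Limma-voom called 0 of the 81. Their median log2 fold change was -0.75, or -0.04 for the 72 of them among well-expressed genes. DESeq2, which called 1.69% of all tested genes lower, called 5 lower and 0 higher, with Prcp, Grn and Cst3 among them. Of 28 further hydrolases and their helpers, 25 were negative, where 83.3% of well-expressed genes were. Of these, 7 had an unadjusted p under 0.05, where 5.1% of all tested genes had lower values. In the fit of well-expressed genes 12 of the 27 fitted were negative (median 0.052), and on library totals alone 12 of the 28 (median 0.16).

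Of 23 further membrane proteins 18 were negative, where 83.3% of well-expressed genes were. At an unadjusted p under 0.05, 2 had lower values, where 5.1% of all tested genes had. In the fit of well-expressed genes 6 of the 17 fitted were negative (median 0.094), and on library totals alone 4 of the 23 (median 0.31), so the sign of both lists turned with the scaling. Slc29a3, a nucleoside transporter, had -1.41 and the transporter Abca2 -1.504. Of 17 subunits of the V-ATPase, the proton pump that acidifies lysosomes, and its accessory proteins, 16 were negative, or 12 on library totals alone. Among well-expressed genes 83.3% were negative, or 41.5% on library totals alone. Of the 17, 3 had lower values at an unadjusted p under 0.05, with Atp6v1f at -1.61 and Atp6v1g1 at -1.64. All 6 genes of sorting to the lysosome were negative, or 5 on library totals alone, with 1 at an unadjusted p under 0.05; the sorting receptor Sort1 had -1.41 and Nagpa, which uncovers the mannose 6-phosphate tag, -1.06. Of 5 regulators of the lysosome, 4 were negative, or 1 on library totals alone (median 0.042), so this list also turned with the scaling. Their log2 fold changes ran from -1.26 to 0.93. Tfeb had 12.3 and 10.2 CPM with imiquimod against 20.5 and 33.1 CPM with Vaseline, a log2 fold change of -1.26 (edgeR quasi-likelihood, adjusted p = 0.348). Tfec, at 0.93, stood at 0.920 times the background. Cst3, cystatin C, an inhibitor of cathepsins, had 295 and 253 CPM with imiquimod against 809 and 1973 CPM with Vaseline (log2 fold change -2.34; edgeR quasi-likelihood, adjusted p = 0.378), and Cstb, which inhibits cathepsins of the cytosol, had -0.90. Per count of Ctss, Cst3 had 1.86 and 1.24 counts with imiquimod against 1.69 and 1.51 with Vaseline, which overlapped.

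These were bulk samples, in which fewer cells of a type and less RNA per cell cannot be told apart, and markers of several cell types differed between the same libraries. The 15 Langerhans cell markers were Cd207, Epcam, Cd74, H2-Aa, H2-Ab1, H2-Eb1, Itgax, Csf1r, Ptprc, Mpeg1, Adgre1, Ly75, Spi1, Tyrobp and Fcer1g. The list is not limited to genes particular to these cells. All 15 were detected in every library, with a median log2 fold change of -2.12. All 15 were lower in both imiquimod libraries, where 50.6% of well-expressed genes were. On library totals alone 13 were, where 19.5% of well-expressed genes were. By edgeR quasi-likelihood 0 of the 15 passed. At an unadjusted p under 0.05, 7 had lower values, where 5.1% of all tested genes had. DESeq2 called 1.69% of all tested genes lower, and 12 of the 15. Their summed level was 8454 and 6584 CPM with imiquimod against 21783 and 53975 CPM with Vaseline. Cd207, which encodes langerin, had 1201 and 575 CPM with imiquimod against 2255 and 6883 CPM with Vaseline. Spi1 had 41.3 and 33.8 CPM with imiquimod against 89.5 and 235 CPM with Vaseline (log2 fold change -2.12; edgeR quasi-likelihood, adjusted p = 0.225). Per count of these markers, the 40 genes together had 0.326 and 0.278 counts with imiquimod against 0.177 and 0.137 with Vaseline. When libraries were scaled to the Langerhans cell markers in place of TMM, 37 of the 40 log2 fold changes were positive, with a median of 0.95. Scaling to genes that were lower with imiquimod raises log2 fold changes in general, so these signs are no result about the 40. The further lysosomal genes then had a median of 1.26. Ctsl, Lgmn and Gaa then passed as higher by edgeR quasi-likelihood, at 2.66, 1.89 and 2.13 (adjusted p = 0.0274, 0.0406 and 0.0427), where 25.7% of all tested genes did.

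The 9 keratinocyte markers were also detected in every library, though the label names Langerhans cells. Their summed level was 18170 and 4944 CPM with imiquimod against 19346 and 22424 CPM with Vaseline. Of the 9, 5 were lower in both imiquimod libraries, where 50.6% of well-expressed genes were. On library totals alone 2 were, where 19.5% of well-expressed genes were. Krt14, a keratin of basal keratinocytes, had 6502 and 1726 CPM with imiquimod against 5560 and 7505 CPM with Vaseline. Per count of Krt14, Ctsl had 0.0355 and 0.0219 counts with imiquimod against 0.0129 and 0.0109 with Vaseline. The 9 neutrophil markers summed to 71.0 and 247 CPM with imiquimod against 14.4 and 49.8 CPM with Vaseline. With imiquimod most of the sum came from S100a8 and S100a9. S100a8 had 16.2 and 48.1 CPM with imiquimod against 0.774 and 9.22 CPM with Vaseline. S100a9 had 39.2 and 152 CPM with imiquimod against 0.774 and 31.0 CPM with Vaseline. Only 3 of the 9, S100a8, S100a9 and Retnlg, were well-expressed genes. By edgeR quasi-likelihood 1 of the 9, S100a8, passed as higher (log2 fold change 2.69, adjusted p = 0.0193). Camp was at 0 in imiquimod 1. The 10 markers of monocytes and macrophages, which are also rich in lysosomes, summed to 123 and 215 CPM with imiquimod against 232 and 302 CPM with Vaseline. Of these 10, only 4 were well-expressed genes. The 6 T cell markers, all well-expressed, summed to 142 and 120 CPM with imiquimod against 246 and 242 CPM with Vaseline. Of 5 melanocyte markers, from cells that share many of these proteins, the sum was 14.7 and 20.3 CPM with imiquimod against 14.5 and 9.53 CPM with Vaseline. These 5 stood at 0.660 to 3.54 times the background, and 0 of them were well-expressed genes. The background was itself higher in both imiquimod libraries. Fibroblast markers (6 genes, of which 3 were well-expressed) summed to 26.7 and 55.3 CPM with imiquimod against 35.5 and 139 CPM with Vaseline. By edgeR quasi-likelihood 1 of the 6, Col3a1, passed as lower (log2 fold change -2.53, adjusted p = 0.0408), although its groups overlapped. Transcripts of the mitochondrial genome, a sign of cell and RNA quality, had a median log2 fold change of -1.28 over 13 genes, or -0.29 on library totals alone. The part of these markers and of the mitochondrial transcripts in the values of the 40 genes was not tested.

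**Figure D5:**
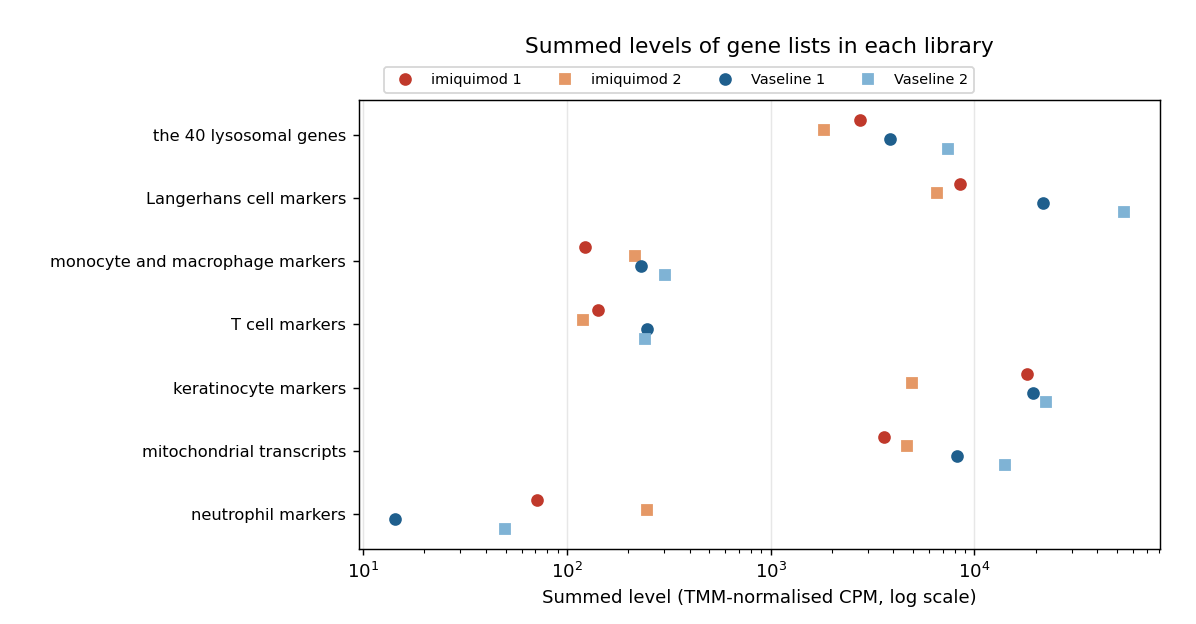
Summed level of the 40 lysosomal genes, of 5 lists of cell type markers and of mitochondrial transcripts in each library, in TMM-normalised CPM on a log scale; circles are replicate 1 and squares replicate 2, red and orange for imiquimod and blue for Vaseline. Every list but the neutrophil markers has both imiquimod points left of both Vaseline points. For the keratinocyte markers imiquimod 1 lies just left of Vaseline 1 and imiquimod 2 far to the left. The neutrophil markers are highest in imiquimod 2.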

How the data were processed

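The data were a table of whole-number counts per gene for 4 libraries, deposited by the authors with no scaling to depth. Per the labels' protocols, each library was made from 10 to 70 ng of total RNA with a stranded total RNA kit. The submitters' processing notes name GRCm38 as the build and StringTie, SAMtools, HISAT2 and Trimmomatic as tools; versions, annotation, strand setting and the handling of multi-mapped reads are not given in the sources used here.

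Of 55487 genes, 39439 passed edgeR's filterByExpr (minimum count 10, minimum total 15). The groups were compared on all 4 libraries with edgeR 4.0.16 in R 4.3.3 (TMM factors, quasi-likelihood test, two-sided, Benjamini-Hochberg adjustment over all genes tested, threshold 0.05), imiquimod over Vaseline. Standard errors are the fold change over the root of the F statistic. With 2 libraries against 2 an exact permutation test cannot go below p = 0.333, so none was used. The fit was tested on simulated data. Exon unions, gene positions and the exon overlap between genes came from GENCODE vM21 (GRCm38; bedtools 2.31.1), which held 55227 of the genes. Ifi30 is listed there as a processed transcript. DESeq2 1.42.0 and limma 3.58.1 were alternatives, with other scalings, filters, gene sets, left-out libraries and a replicate block; the closing section gives their effect. Tables and plots were made with Python 3.11.15, pandas 2.3.3, scipy 1.17.1 and matplotlib 3.10.9.

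The 40 members and all gene lists were chosen with earlier results of these data known. Values in every library are given, per role, for the 3 members of highest mean CPM, the 2 of smallest p and those with the highest and lowest log2 fold change, 21 in all; of each further lysosomal list the 2 of smallest p are named, except that those of the further hydrolases are not reported here. Libraries of a group differed by far more than counting error (chi-square over its degrees of freedom 90.4 in imiquimod and 97.4 in Vaseline), and no library was counted as a copy of another.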

Additional observations from a re-analysis of the deposited data

How the results depend on the processing

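Main counts over all tested genes were 25 higher and 54 lower by edgeR quasi-likelihood; of the 40 members 0 passed and 2 were positive, with a median of -1.11, and the median of the 81 further lysosomal genes was -0.75. RLE factors gave 14 genes lower and 1 positive member. Upper-quartile factors gave 41 genes higher, 5 positive members and a median of -0.39 for the further lysosomal genes. Library totals alone gave 8 genes higher and 5 lower, 11 positive members, and medians of -0.26 for members and 0.076 for the further lysosomal genes. Scaling to Langerhans cell markers gave 10136 genes higher and 2 lower, 37 positive members of which 3 passed as higher, 4 further lysosomal genes higher, and medians of 0.95 and 1.26; it reversed Lgmn, to 1.89 from -0.18 in the main test. DESeq2 gave 6 genes higher and 667 lower, 1 positive member, 7 members lower and 5 further lysosomal genes lower. Limma-voom gave 41 genes higher and 136 lower, with 2 members lower. Without a filter 0 genes passed in either direction; the stricter filter gave 124 lower, 2 of them members. Fitting well-expressed genes alone gave 0 genes in either direction, 11 positive members, and medians of -0.31 and -0.042. Leaving out 1 library at a time gave 8 to 2959 genes higher and 0 to 317 lower, 0 to 1 members lower, 1 to 4 positive members, 0 to 1 further lysosomal genes higher, and medians of -1.57 to -0.74 for members and -1.22 to -0.44 for the further genes, with the lone library of a group assumed to vary like the other group. The replicate block gave 1 gene higher and 0 lower and changed no call among the members. Same-numbered libraries did not deviate together (r = -0.43 over 39439 genes). With 2 libraries a group, crossed numbers give the same value with the other sign. The value therefore cannot tell whether the numbers pair the libraries. A block with the numbers crossed gave 0 genes in either direction. Summing genes that share a symbol moved none of these counts by more than 1.5 times.

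The following were chosen after seeing the data. The older form of edgeR's quasi-likelihood fit gave 3 genes higher and 5 lower. DESeq2 on well-expressed genes gave 99 genes higher and 155 lower, 2 members and 2 further lysosomal genes lower, 11 positive members, and medians of -0.34 and -0.074. Subtracting each library's background gave 0 genes in either direction, 11 positive members, and medians of -0.29 and -0.050. Well-expressed genes with 1 library left out at a time gave 0 to 18 genes higher and 0 to 5 lower. Without imiquimod 1, imiquimod 2, Vaseline 1 and Vaseline 2, in that order, 13, 9, 10 and 15 members were positive, the members' median was -0.27, -0.46, -0.40 and -0.24, and that of the further genes -0.065, -0.13, -0.087 and 0.0095. Between 0 and 35 members changed sign across all alternatives, most with scaling to Langerhans cell markers. The cause of each of these differences was not tested. No member was limited by counting error, with at least 66 counts in each library; the spread between 2 libraries a group sets the precision.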

Other observations

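All 9 keratinocyte markers were higher in imiquimod 1 than in imiquimod 2, as Ctsl was. Against Vaseline they were mixed, since imiquimod 1 lay above both Vaseline libraries for 3 of the 9 (Krt15, Perp and Trp63), between them for 1 and below both for 5. Krt5, a keratin of basal keratinocytes, had 3593 and 1160 CPM in imiquimod 1 and 2, against 4960.5 and 6306 CPM in Vaseline 1 and 2. Krt15, another keratin of these cells, had 1241 and 24.0 CPM in imiquimod 1 and 2, against 782 and 618 CPM in Vaseline 1 and 2, and Perp, a protein of their junctions, had 1316 and 202 CPM in imiquimod 1 and 2, against 785 and 806 CPM in Vaseline 1 and 2. Lamp1, with 217 and 77.0 CPM in imiquimod 1 and 2, and Gla, with 58.6 and 24.0 CPM, had the same order of the imiquimod libraries. That order is not particular to these genes. It held for 33 of the 40 members in TMM-normalised CPM, and for 12 on library totals alone. The part of keratinocyte RNA in these values was not tested.

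Among the further lysosomal genes, Slc11a1, the metal transporter of phagocyte lysosomes, had 4.22 and 19.6 CPM in imiquimod 1 and 2, against 9.31 and 7.09 CPM in Vaseline 1 and 2, and its groups overlapped. Its log2 fold change of 1.49 was the highest of the further lysosomal genes fitted among genes at 5 times the background or more, and it did not pass by edgeR quasi-likelihood. The neutrophil markers stood highest in the same library. Slc11a1, Krt5, Krt15 and Perp were chosen after their values were seen.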
